A study of Arabidopsis thaliana with 32 samples.

Results

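The warm growth response of hmr-22 was taken as the difference between 4 seedling libraries labelled hmr-22 and grown at 27 °C and 4 libraries labelled hmr-22 and grown at 20 °C, which are 8 of the 32 libraries of the series. The comparison was set by genotype and temperature and not by any measured value, and it covered every gene of the deposited table. All seedlings carried the Col-0 background and were grown for 96 h in continuous red light of 50 µmol m-2 s-1 at the constant temperature, with 4 biological replicates in each group. The other 24 libraries are Col-0, pif4-2 and med14 at the same temperatures, of which only the 8 Col-0 libraries were used here, for comparison. The labels do not say whether a replicate was a separate growth batch, so the p-values measure the spread between these samples. hmr-22 is a single line, described by the study as a weak mutant whose activation domain carries a changed amino acid.

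HEMERA (HMR), also called pTAC12, is found in both chloroplasts and nuclei. In the chloroplast it belongs to the complex around the plastid-encoded RNA polymerase, which transcribes most photosynthesis genes of the plastid genome, and in the nucleus it acts as a coactivator of PHYTOCHROME INTERACTING FACTOR 4 (PIF4). PIF4 is a transcription factor that raises auxin synthesis and the expression of growth genes in warmth, and these drive the elongation of the hypocotyl. The study kept the plated seeds cold in the dark before the temperature treatment began. Seedlings kept at the warmer temperature after that step also pass through germination, seed reserve use and greening at that temperature.

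The HMR transcript was checked first. Its deposited FPKM (mapped fragments scaled to the length of the transcript and the size of the library) was 0.184, 0.352, 0.283 and 0.0766 in the 4 hmr-22 libraries at 20 °C and 0.991, 0.926, 1.31 and 0.600 at 27 °C. The Col-0 libraries held 29.7 ± 3.09 (SD, n = 4) at 20 °C and 47.9 ± 5.40 at 27 °C. All 8 libraries labelled hmr-22 were therefore far below Col-0. Once the libraries were scaled as described below, the 2 temperatures overlapped for HMR in hmr-22. Its log2 change of 27 °C over 20 °C was then 0.67 (limma adjusted p = 0.123). The libraries are named here by their label.

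The hmr-22 libraries held 12523940 to 15641068 mapped fragments, with overlapping ranges at the 2 temperatures. The libraries at 20 °C and 27 °C were composed differently. Fragments assigned to nuclear genes of the table made up 50.7 ± 11.3% (SD, n = 4) of the library at 20 °C and 69.7 ± 4.23% at 27 °C, and 76.5 ± 6.51% and 92.3 ± 0.475% in Col-0. Fragments outside the listed genes made up 49.1 ± 11.3% at 20 °C and 29.7 ± 4.18% at 27 °C, and 21 ± 6.30% and 6.57 ± 0.477% in Col-0. Both shares thus moved the same way in the 2 genotypes. Fragments in plastid genes made up 0.1002 ± 0.0206% at 20 °C and 0.587 ± 0.136% at 27 °C, against 2.37 ± 0.404% and 1.06 ± 0.459% in Col-0. The plastid share thus rose with temperature in hmr-22 while the Col-0 mean was lower at 27 °C. Genes at an FPKM of at least 1 numbered 10218 ± 1463 at 20 °C and 13006 ± 785 at 27 °C, and 16639 ± 191 and 17687 ± 106 in Col-0. Transcripts longer than 2500 bases took 7.19 ± 1.52% of the nuclear fragments at 20 °C and 14.3 ± 1.44% at 27 °C, while in Col-0 they took 23.1 ± 0.951% and 24.7 ± 1.09%. For these 5 measures the 2 temperatures did not overlap in hmr-22, and a 2-sided exact permutation test gave p = 0.0286 for each, the smallest value that 4 against 4 libraries allow (adjusted p = 0.0343 over 6 measures).

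**Figure D1:**
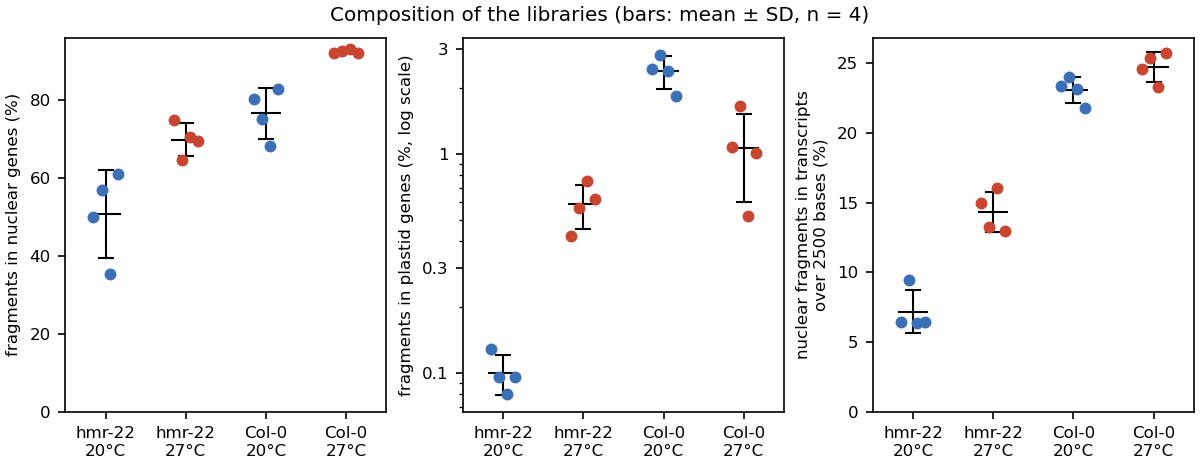
Composition of the hmr-22 and Col-0 libraries at 20 °C and 27 °C, with 1 point per library and the mean ± SD of 4 libraries. The plastid share of the hmr-22 libraries ran from 0.0803% to 0.129% at 20 °C and from 0.420% to 0.747% at 27 °C, and the share of nuclear fragments in transcripts over 2500 bases ran from 6.40% to 9.47% and from 13% to 16.05%.

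Of 14648 genes tested in hmr-22, 1020 were induced at 27 °C (6.96%) and 1541 were repressed (10.5%). A gene was tested when its deposited FPKM reached 0.5 in at least 4 of the 8 libraries, and it was called when the adjusted p of limma was below 0.001, the change was at least 2-fold and the larger group mean of the deposited FPKM was above 1. Changes are given as log2 of 27 °C over 20 °C on the scale log2(scaled FPKM + 0.25), where scaled FPKM is the deposited FPKM divided by a factor for each library; on this scale the change of a gene with low values is understated. Without that scaling the median of all tested genes moved from 0.05 to 0.97 and the calls became 4791 induced and 390 repressed, so all directions below are relative to the typical gene of these libraries. Among the tested genes, 654 passed the filter only through the 4 libraries at 27 °C and 76 only through the 4 at 20 °C, and such genes had to be higher in deposited FPKM at that temperature. Single libraries weighed on the counts: 679 genes were induced and 1021 repressed without replicate 4 at 20 °C, and 600, 611 and 651 were induced without replicates 1, 3 and 4 at 27 °C.

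The change moved with the length of the transcript. Across the tested genes, which are not independent replicates, the change and the exon length had a Spearman correlation of 0.417 in hmr-22 and of 0.114 in Col-0. The median change was -0.72 among the 987 genes of up to 800 bases, of which 40 were induced and 276 repressed. It was 0.94 among the genes longer than 3500 bases, of which 222 were induced and 8 repressed. Whether this reflects the RNA, the libraries or the plants was not tested. After the trend with length was removed within each library, 813 genes were induced (5.55%) and 1191 repressed (8.13%), and 587 of the genes first called induced and 1046 of those called repressed were among them. The calls of each list are therefore given below with their number after this removal.

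**Figure D2:**
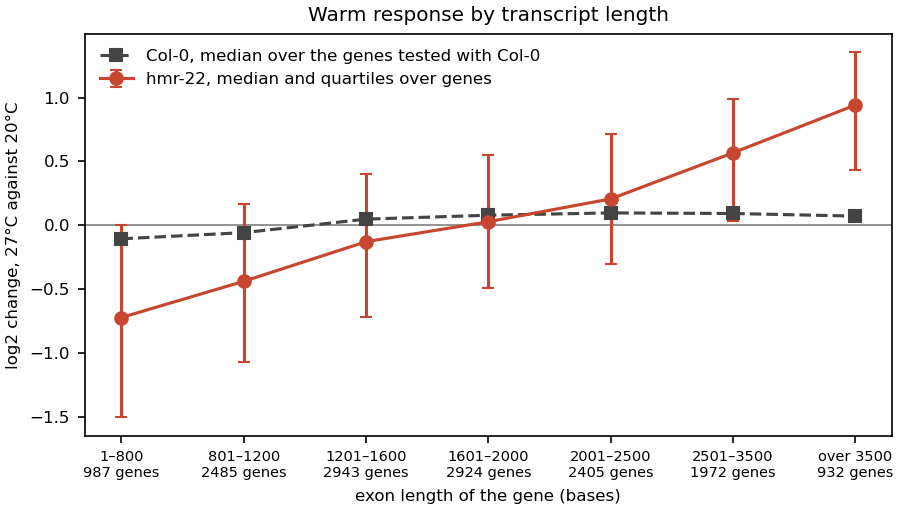
Change between 27 °C and 20 °C against the exon length of the gene, as the median with quartiles over the genes of 7 length classes in hmr-22 and as the median in Col-0. The hmr-22 medians climbed from -0.72 to 0.94, whereas the Col-0 medians stayed between -0.11 and 0.10.

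Several heat shock genes were induced. Of 25 listed members (chaperones and their regulators) 12 were tested. Of these, 5 passed the filter only through the 27 °C libraries (HSP17.4, HSP17.8, HSP23.5, HSP90-1 and HSP101) and had to be higher there. Of the other 7, 3 were induced and none was repressed, with a median change of 1.34 against 0.05 over all tested genes. The 5 were called induced as well, and of the 8 calls 7 were left after the length trend was removed. The cytosolic chaperone gene HSP70 (AT3G12580, TAIR10 chromosome 3, 3991117 to 3993886) was at 0.453, 0.801, 1.03 and 0.0771 scaled FPKM at 20 °C and at 28.3, 23.0, 20.0 and 19.1 at 27 °C. The 27 °C libraries were all above the 20 °C libraries, and the change was 4.92 (SE 0.34, limma adjusted p = 8.81e-08). HSP70 also rose by 3.09 in Col-0, and the response was larger in hmr-22 by 2.14 (limma interaction, adjusted p = 0.00508).

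The chaperone HSP90-1 changed by 3.76 and the heat-responsive coactivator MBF1C by 3.13. HSP101, the disaggregase needed for acquired thermotolerance, was between 0 and 0.222 scaled FPKM at 20 °C and between 1.06 and 1.27 at 27 °C, a change of 2.06 that did not pass the call once the length trend was removed. The small heat shock protein gene HSP17.8 was listed at 0 in the 4 libraries at 20 °C and at 1.17, 2.03, 0.641 and 0.532 scaled FPKM at 27 °C. HSP17.4 was at 0 in 3 of the libraries at 20 °C and at 0.0996 in replicate 2, and at 1.16, 1.2, 0.734 and 1.49 at 27 °C. Both small heat shock genes were thus near the floor of detection at 20 °C. When any single 27 °C library was left out, only 7 members passed the filter on low values and 3 were induced.

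The promoter of HSP17.4 is shown because it held 2 heat shock elements, the site bound by heat shock factors. The motif was searched on both strands as 3 alternating GAA and TTC units with any 2 bases between units. Sequences are the 250 bases upstream of the start of the gene in the deposited table, read 5′ to 3′ on the strand of the gene from the RefSeq TAIR10.1 assembly, with capitals marking the matches.
HSP17.4, chr3:16984868-16985117, minus strand: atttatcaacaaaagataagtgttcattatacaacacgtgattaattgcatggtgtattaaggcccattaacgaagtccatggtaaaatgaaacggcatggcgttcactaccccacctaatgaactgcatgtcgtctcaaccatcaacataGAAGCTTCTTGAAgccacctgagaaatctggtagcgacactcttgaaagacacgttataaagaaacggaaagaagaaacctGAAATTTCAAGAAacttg
This element was in 3 of 12 tested heat shock promoters, a share of 25%, and in 0.42% of the 14534 promoters of all tested nuclear genes. HSP17.4 was the only called gene among these 3, so most of the induced heat shock genes lacked the element. A match is a run of letters and not a bound site.

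Most tested genes of seed maturation were induced, with an exception. Of 24 listed genes of seed storage and maturation 10 were tested, and 6 were induced and 1 repressed, both before and after the length trend was removed. The filter was passed only through 27 °C by PER1 and ABI5, of which PER1 was called induced, and only through 20 °C by OLEO3, the repressed gene; of the other 7, 5 were induced and none was repressed (median 2.24). The wider group of 48 tested genes that the annotation names late embryogenesis or dehydrin, looked at after the values were seen, was mixed, with 16 induced, 7 repressed and a median of -0.10 (17 and 5 after the length trend was removed). PER1 (AT1G48130, chromosome 1, 17780429 to 17781727), a 1-cysteine peroxiredoxin of dry seeds, was listed at 0 in replicates 1, 3 and 4 at 20 °C and at 0.212 in replicate 2, and at 7.27, 10.2, 8.66 and 7.57 scaled FPKM at 27 °C. All 27 °C libraries lay above all 20 °C libraries (limma adjusted p = 1.89e-08), and the response was larger than in Col-0 by 3.89 (adjusted p = 1.56e-05). The late embryogenesis gene EM6 changed by 2.52 and the dehydrin RAB18 by 2.56.

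The oil body coat genes split. OLEO2 (AT5G40420, chromosome 5, 16173340 to 16174783) was at 0, 0.646, 2.06 and 0.946 scaled FPKM at 20 °C and at 10.5, 22.5, 16.9 and 10.5 at 27 °C, a change of 4.04 (SE 0.52, limma adjusted p = 3.6e-05). OLEO3 (AT5G51210, chromosome 5, 20820068 to 20820944) was at 7.32, 4.09, 4.74 and 5.70 at 20 °C and at 0.113, 0.313, 0.239 and 0 at 27 °C, a change of -3.81 (SE 0.31, adjusted p = 2.53e-07). The 2 temperatures did not overlap for either gene, and the order was opposite. OLEO2 lost its call when replicate 2 at 20 °C was left out. The 7 seed markers summed to 1.54 to 3.02 scaled FPKM at 20 °C and to 14.7 to 30.04 at 27 °C, with 3 of 7 (OLEO2, EM1 and EM6) above without overlap, as were 21.3% of all tested genes, while the storage protein genes CRA1, CRC and SESA1 were at or below 0.233 in every library. In bulk seedlings, fewer cells of a type and less RNA per cell cannot be told apart.

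Many seed maturation promoters carry the G-box CACGTG, the core site of bZIP factors of abscisic acid signalling and of the PIF factors. It was found in 6 of 10 tested seed maturation promoters (60%) and in 7.73% of all tested nuclear promoters. The letters of ABRE, another abscisic acid motif searched as ACGTGGC, overlap those of the G-box. The promoters of a gene that rose, PER1, and of the one that fell, OLEO3, are set side by side, with the G-box in capitals.
PER1 (AT1G48130), chr1:17780179-17780428, plus strand: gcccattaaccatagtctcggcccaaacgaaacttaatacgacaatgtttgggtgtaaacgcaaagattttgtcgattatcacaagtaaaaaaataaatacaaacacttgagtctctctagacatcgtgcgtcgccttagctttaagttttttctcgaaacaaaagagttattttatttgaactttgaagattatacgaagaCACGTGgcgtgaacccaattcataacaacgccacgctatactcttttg
OLEO3, chr5:20819818-20820067, plus strand: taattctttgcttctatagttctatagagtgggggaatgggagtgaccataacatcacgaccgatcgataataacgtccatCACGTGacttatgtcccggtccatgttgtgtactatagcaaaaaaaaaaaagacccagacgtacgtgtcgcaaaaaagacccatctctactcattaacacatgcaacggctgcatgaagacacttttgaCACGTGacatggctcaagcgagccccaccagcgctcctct
The promoter of PER1 held 1 G-box and that of OLEO3 held 2. The G-box of PER1 ran on into the ABRE letters ACGTGGC, and neither G-box of OLEO3 did. The part of either motif in the 2 changes was not tested.

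Genes that turn seed oil into sugar rose in part. Of 15 tested genes of the list, 4 were induced and none was repressed (median 0.78), and 3 were induced after the length trend was removed. ICL (AT3G21720, chromosome 3, 7652487 to 7656053), isocitrate lyase of the glyoxylate cycle, was at 35.6, 46.5, 30.2 and 28.4 scaled FPKM at 20 °C and at 392, 540, 232 and 189 at 27 °C. Its change of 3.16 (SE 0.29, limma adjusted p = 8.9e-07) exceeded that of Col-0, 1.74, by 1.44 (adjusted p = 0.00894). PCK1, phosphoenolpyruvate carboxykinase of gluconeogenesis, changed by 1.76, with a difference from Col-0 of 1.68. The lipase gene SDP1, which starts oil breakdown, changed by 1.33 and lost its call with the length trend removed. Of 11 energy starvation genes, 5 were induced (median 0.98), but none was after the length trend was removed, and 2 were without replicate 1 at 20 °C and 3 without replicate 4 at 20 °C.

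Several genes outside these lists rose by similar amounts. XTR6 (AT4G25810, chromosome 4, 13128394 to 13129927), for a xyloglucan endotransglycosylase that remodels the cell wall, was at 0.901, 0.544, 0.756 and 0.283 scaled FPKM at 20 °C and at 27.3, 20.8, 15.4 and 19.6 at 27 °C. Its change of 4.62 (SE 0.26, limma adjusted p = 1.89e-08) exceeded that of Col-0 by 3.27. GolS1, galactinol synthase of the raffinose pathway, was at 0.628 to 1.64 at 20 °C and at 18.4 to 21.99 at 27 °C, a change of 3.81, and the late embryogenesis gene M17 was at 0 to 0.171 and at 5.12 to 23.3. XTR6, GolS1 and M17 did not overlap between temperatures, as 21.3% of all tested genes lay above without overlap. They were picked for their large rises, so this adds no support. The fatty acid elongase gene KCS12 changed by 3.84 in hmr-22 and by 3.49 in Col-0, and the difference between the genotypes did not pass the test (adjusted p = 0.0897). CYP71A25, a cytochrome P450 gene, was listed at 0 in the 4 libraries at 20 °C and at 2.19 to 2.82 scaled FPKM at 27 °C. M17, KCS12 and CYP71A25 passed the filter only through 27 °C and had to be higher there.

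Plastid-encoded transcripts rose relative to nuclear ones. Of 74 tested plastid genes, 25 were induced and none was repressed, with a median change of 1.22 in hmr-22 and of -1.46 in Col-0. The plastid genes are short as a group, and 38 were induced after the length trend was removed. The response was higher in hmr-22 than in Col-0 for 64 of 82 plastid genes tested in both and lower for none, where 17.9% of all 19182 genes were higher and 17.3% lower. Of 17 tested genes read mainly by the plastid-encoded polymerase, 6 were induced (median 1.36) and 11 after the length trend was removed (median 2.04). Of 6 read by the nuclear-encoded polymerase, 1 was induced in both cases, with a median of 0.62 and of -0.04 after the removal. The median exon length was 648 bases in the first of these lists and 3675 bases in the second. In a fit of all 32 libraries the median was 1.44 but only 2 plastid genes were called.

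The gene psaA (ATCG00350, plastid genome, 39605 to 41857), for a reaction centre protein of photosystem I, was at 33.1, 28.9, 44.0 and 25.2 scaled FPKM at 20 °C and at 97.9, 232, 195 and 145 at 27 °C. The change was 2.3 (SE 0.25, limma adjusted p = 4.63e-06) against -2.47 in Col-0, a difference of 4.79 (adjusted p = 4.45e-07). The photosystem II reaction centre gene psbD changed by 2.33 and the ATP synthase gene atpA by 2.59. The gene accD, for a subunit of acetyl-CoA carboxylase and read by the nuclear-encoded polymerase, was between 1.26 and 1.43 at 20 °C and between 3.89 and 8.88 at 27 °C. The 2 temperatures did not overlap for any of these 4 called genes, where 21.3% of all tested genes lay above without overlap. The libraries were made with an mRNA kit and plastid transcripts mostly lack a poly(A) tail, so these values are those of the plastid RNA that entered the libraries.

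A few nuclear genes listed as plastid polymerase-associated, sigma factors or phage-type polymerases were induced. Of 12 tested polymerase-associated genes, 3 were induced and none was repressed (median 0.78), 2 after the length trend was removed and none when any of replicates 1, 3 and 4 at 27 °C was left out; 1 was without replicate 1 or 4 at 20 °C or replicate 2 at 27 °C. FLN1, a fructokinase-like subunit of the complex, was at 0.055, 0.475, 0 and 0.169 scaled FPKM at 20 °C and at 3.39, 2.71, 3.05 and 3.61 at 27 °C, a change of 3.13 (SE 0.33, limma adjusted p = 2.98e-06), and it passed the filter only through 27 °C. Of 8 tested genes for sigma factors and phage-type polymerases, 3 were induced and none was repressed (median 0.91), and 1 was induced after the length trend was removed. RPOT1 and RPOT3, which are 2 of the 3, passed the filter only through 27 °C and had to be higher there. Of the other 6, 1 was induced. RPOT3, which encodes a plastid phage-type polymerase, changed by 2.34. Outside these lists, and named for being among the largest falls of all genes, PRIN2 (AT1G10522, chromosome 1, 3469512 to 3471488), needed for full activity of the plastid-encoded polymerase, fell from 59.8, 29.0, 131 and 63.2 to 2.25, 3.26, 2.04 and 3.29. Its change of -4.41 (SE 0.34, adjusted p = 3.13e-07) was lower than that of Col-0 by 4.21 on the log2 scale.

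Most nuclear genes for the light-harvesting antenna were repressed, in a number that depended on the scaling. Of 17 tested members, 13 were repressed and none was induced (median -1.63), and 10 after the length trend was removed. Without scaling 5 were repressed (median -0.57), and with quantile normalization 4 were (median -0.52). Quantile normalization gives equal ranks equal values in every library, so it cannot show a fall in genes that stay at the top ranks. LHCB3 (AT5G54270), an antenna protein of photosystem II, was at 7159, 5040, 6766 and 6752 scaled FPKM at 20 °C and at 884, 1019, 467 and 791 at 27 °C. The groups were far apart, and the change of -3.07 (SE 0.25, limma adjusted p = 2.72e-07) was lower than the change of 0.70 in Col-0 by 3.76 on the log2 scale. LHCB1.3, for a major antenna protein, was between 32619 and 50113 at 20 °C and between 5674 and 14745 at 27 °C. Its change with quantile normalization was -0.17 (limma adjusted p = 0.369), which decides little for a gene with values this high. LHCB1.1, LHCB1.2 and LHCB1.3 are near-identical copies, so the split of fragments among them is uncertain. The response was lower in hmr-22 than in Col-0 for 15 of 17 antenna genes, where 17.3% of all 19182 genes were lower.

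Of 19 genes for photosystem subunits and Rubisco, 9 were repressed (median -0.77, but 0.29 and none repressed without scaling), and only 2 were after the length trend was removed and 1 with quantile normalization. Without replicate 4 at 20 °C 4 of them were repressed, and without replicate 3 at 20 °C or any of replicates 1, 3 and 4 at 27 °C 5 were. Of 16 chlorophyll synthesis genes, 1 was repressed, also after the length trend was removed, the protochlorophyllide reductase gene PORB (-1.40). The early light-induced genes ELIP1 and ELIP2, which encode photoprotective relatives of the antenna proteins, changed by -3.24 and -2.38, where Col-0 changed by -2.67 and -2.28, and neither difference from Col-0 passed the test (adjusted p = 0.178 and 0.631). The 5 shoot markers, all photosynthesis genes, summed to 17742 to 24024 scaled FPKM at 20 °C and to 6745 to 11810 at 27 °C and were all below without overlap, as were 20.7% of all tested genes. Their part in these results was not tested.

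No tested gene of the auxin-responsive SAUR, Aux/IAA and GH3 lists was induced in hmr-22. These lists held 30, 10 and 5 chosen members, and family members outside them were not counted. Of 19 tested SAUR genes, small auxin-induced regulators of cell elongation, 10 were repressed and none was induced (median -2.12, or -1.21 without scaling), with 6 repressed after the length trend was removed and 5 by voom on recovered fragments. The filter was passed only through 20 °C by 3 of the 19, and of the other 16, 8 were repressed (median -1.52). Over the 16 hmr-22 and Col-0 libraries, 29 SAUR genes passed the filter, with a Col-0 median of 1.46. The response was lower in hmr-22 for 27 of these 29, as for 17.3% of all 19182 genes. Only 19 of the 29 passed the filter within hmr-22. A gene could enter the 29 through Col-0 alone, where a lower response in hmr-22 was favoured by the filter. SAUR14 (AT4G38840) was at 111, 59.4, 120 and 120 scaled FPKM at 20 °C and at 15.9, 20.3, 23.56 and 22.7 at 27 °C, without overlap. Many SAUR genes are close copies of each other, so the split of fragments among them is uncertain. Between 4 and 8 SAUR genes were repressed when a single library was left out, with 4 without replicate 1 or 4 at 20 °C and 6 without replicate 2 at 20 °C or replicate 2 or 3 at 27 °C.

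IAA19 (AT3G15540, chromosome 3, 5264001 to 5265695), an auxin-induced repressor of auxin signalling and a PIF4 target, was at 1.41, 1.48, 1.88 and 1.15 scaled FPKM at 20 °C and at 0.043, 0.357, 0.0454 and 0.151 at 27 °C. Its change was -2.17 (SE 0.32, limma adjusted p = 6.63e-05), while Col-0 changed by 1.71, a difference of -4.34 (adjusted p = 2.98e-07). In the Aux/IAA list, 2 of 5 tested genes were repressed (median -1.12) and 1 after the length trend was removed. IAA19 passed the filter only through 20 °C, and 1 of 4 was repressed when any 20 °C library was left out. IAA29 did not pass the filter on low values, with a deposited FPKM between 0 and 0.457 in the 8 libraries. The auxin synthesis gene YUC8 was at 1.21, 1.72, 1.70 and 0.841 at 20 °C and at 0.602, 0.693, 0.926 and 0.643 at 27 °C, and its change of -0.71 (adjusted p = 0.0514) was 0.12 without scaling. The difference of YUC8 from Col-0 was -1.55 (adjusted p = 0.00124).

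PIF4 itself (AT2G43010) was at 3.74, 7.42, 7.53 and 3.82 scaled FPKM at 20 °C and at 7.92, 8.31, 7.28 and 8.40 at 27 °C. The groups overlapped, the change was 0.56 (SE 0.24, limma adjusted p = 0.0682), and the difference from Col-0 did not pass the test (-0.64, adjusted p = 0.117), although it did with the length trend removed (-0.90, adjusted p = 0.0227). MED14, the Mediator subunit whose mutant is in the series, changed by 1.29 (adjusted p = 0.00189) and by 0.24 with the length trend removed; its transcript is 5588 bases long. The sulfotransferase gene ST2A and the organ size gene ARGOS, which changed by 2.76 and 1.82 in Col-0, changed by 0.29 (adjusted p = 0.394) and -1.27 (adjusted p = 0.00219) in hmr-22. Of 13 PIF and shade genes, 3 were repressed (median -0.68, but 0.32 without scaling) and 1 after the length trend was removed, among them PAR1, an atypical helix-loop-helix factor of shade responses, at -2.02. Of 11 brassinosteroid and PRE/BEE genes, 3 were repressed (median -0.27, but 0.76 without scaling) and 2 after the length trend was removed, among them the growth-promoting helix-loop-helix gene PRE6 at -2.53.

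Most of the listed expansins, proteins that loosen the cell wall, were repressed. Of 9 tested members, 8 were repressed, also after the length trend was removed, and the median was -3.02 (-2.12 without scaling). EXPA6 (AT2G28950, chromosome 2, 12431338 to 12433796) was at 115, 67.9, 106 and 123 scaled FPKM at 20 °C and at 7.63, 13.5, 9.23 and 6.76 at 27 °C. The groups did not overlap, and the change was -3.45 (SE 0.23, limma adjusted p = 5.32e-08). EXPA8 changed by -3.38 in hmr-22 and by 1.29 in Col-0. All 9 listed expansins responded lower in hmr-22 than in Col-0, as did 17.3% of all 19182 genes.

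The gibberellin-regulated GASA peptides split. GASA6 (AT1G74670) was at 139, 108, 114 and 141 scaled FPKM at 20 °C and at 8.36, 7.40, 14.3 and 11.6 at 27 °C, a change of -3.60 (SE 0.21, limma adjusted p = 1.89e-08) where Col-0 changed by 2.11. GASA1 (AT1G75750) moved the other way, from 1326, 688, 1490 and 1352 to 3939, 4964, 3410 and 4449, a change of 1.83 (SE 0.26, adjusted p = 3.65e-05). Neither gene overlapped between temperatures.

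**Figure D3:**
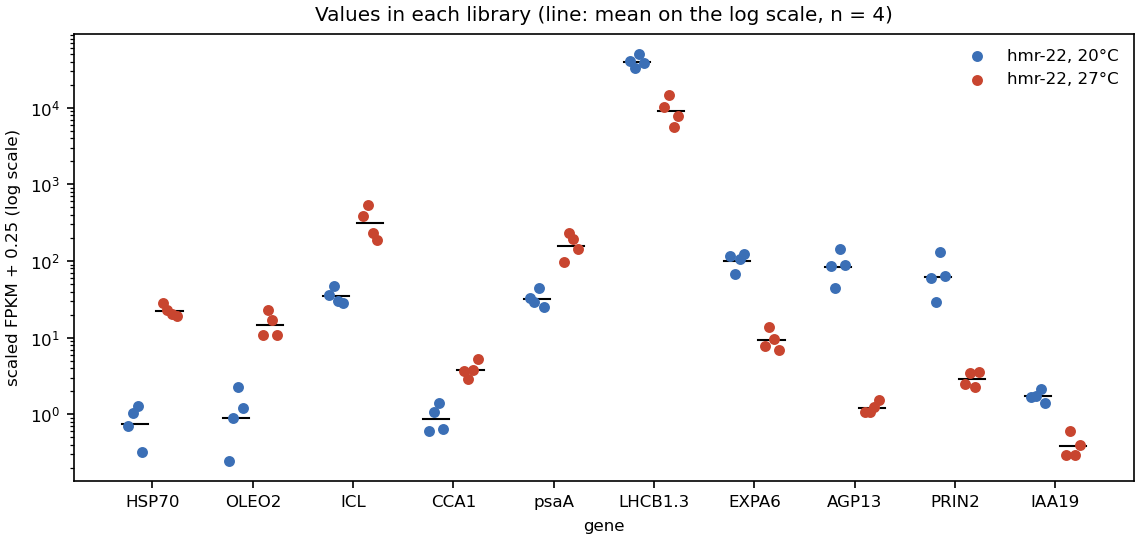
Scaled FPKM + 0.25 on a log scale of 10 genes in the 8 hmr-22 libraries, with 1 point per library and a bar at the group mean on the log scale. HSP70, OLEO2, ICL, CCA1 and psaA sit higher at 27 °C and LHCB1.3, EXPA6, AGP13, PRIN2 and IAA19 lower, and no gene has points that overlap between the temperatures. The 10 genes were picked from those called.

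Cell wall and root hair genes were among the steepest falls. AGP13 (AT4G26320, chromosome 4, 13317053 to 13317640), for an arabinogalactan peptide of the cell surface, was at 85.6, 44.4, 141 and 87.3 scaled FPKM at 20 °C and at 0.813, 0.818, 1.01 and 1.29 at 27 °C. The change was -6.09 (SE 0.28, limma adjusted p = 4.68e-09) and was -2.86 in Col-0. The cadmium resistance family gene PCR3 changed by -5.40 where Col-0 changed by 0.53, the peroxidase gene PER1 (AT1G05250) by -5.33, and the epidermal gene PDF1 by -4.30. Of 9 listed root hair genes only 4 were tested, and 3 of these, among them the root hair expansin gene EXPA18 (-2.70), passed the filter only through 20 °C and had to be lower at 27 °C. The other, the root hair expansin gene EXPA7, changed by -3.36 and was repressed, also after the length trend was removed.

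The 5 root markers were mixed. They summed to 208 to 249 scaled FPKM at 20 °C and to 76.4 to 178 at 27 °C, nearly all of it PYK10, and 3 of 5 were below without overlap (20.7% of all tested genes were), while the nitrate transporter gene NRT2.1 was at 0 in all 8 libraries. When any 20 °C library was left out, only 1 root hair gene passed the filter on low values, and it was repressed. The part of root tissue in these results was not tested. In the cell cycle list, 3 of 10 tested genes were repressed and 1 induced (median -1.02). After the length trend was removed, 3 were repressed and none was induced. The replication clamp gene PCNA1 (-2.30) passed the filter only through 20 °C and had to be lower at 27 °C. Of the other 9, 2 were repressed and 1 was induced (median -0.88). The cytokinesis syntaxin gene KNOLLE changed by -2.08, whereas the Aurora kinase gene AUR2 changed by 1.41 and lost its call with the length trend removed.

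The calls among nuclear genes for ribosomal proteins, which are short, depended on the treatment of length and scaling. Of 304 tested, 71 were repressed and 6 induced (median -0.56 against -0.42 in Col-0), and 1 to 3 were induced without replicate 1 or 4 at 20 °C or replicate 1, 3 or 4 at 27 °C. After the length trend was removed 35 were repressed and 12 induced (median -0.08), and without scaling 16 were repressed and 51 induced (median 0.48). RPL41D (AT3G56020), a ribosomal protein of the large subunit, was at 469, 199, 733 and 425 scaled FPKM at 20 °C and at 32.2, 41.1, 32.2 and 47.6 at 27 °C; near-identical copies of this gene share its name. Site II elements, searched as TGGGCC and its reverse complement, were in 140 of these 304 promoters (46.1%) and in 2569 of the 14534 of all tested nuclear genes. The promoter of this gene is shown for its 2 matches close to the start.
RPL41D (AT3G56020), chr3:20791164-20791413, minus strand: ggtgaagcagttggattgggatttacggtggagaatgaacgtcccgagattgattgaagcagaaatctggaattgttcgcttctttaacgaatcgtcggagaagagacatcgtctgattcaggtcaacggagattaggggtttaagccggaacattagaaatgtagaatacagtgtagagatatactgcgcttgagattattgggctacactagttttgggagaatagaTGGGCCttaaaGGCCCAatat
The share of promoters with site II was 16.2% among all induced and 16.1% among all repressed genes.

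Some genes of the circadian clock were induced. Of 19 tested, 7 were induced, none was repressed and 12 did not pass (median 0.98), with 4 induced after the length trend was removed. CCA1 (AT2G46830), a morning-phased Myb factor at the core of the clock, was at 0.349, 0.824, 1.14 and 0.393 scaled FPKM at 20 °C and at 3.39, 2.67, 3.54 and 4.96 at 27 °C. The change was 2.13 (SE 0.31, limma adjusted p = 5.79e-05), and that of Col-0 was 1.16. LNK2, a coactivator of the clock, was at 12.5, 16, 10.05 and 15.8 at 20 °C and at 63.1, 64.2, 50.7 and 60.7 at 27 °C. Morning genes were not the only ones that rose, since the evening-phased TOC1 changed by 1.11 (adjusted p = 0.000142), a call lost with the length trend removed.

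TOC1 was picked for display because it was a called clock gene whose promoter carries the evening element AAAATATCT, a site of clock Myb factors such as CCA1. The motif was in 5 of 19 tested clock promoters (26.3%) and in 2.57% of all tested nuclear promoters. TOC1 was the only called gene among these 5, so most of the induced clock genes lacked the motif. It is shown on the strand of TOC1, where it reads in reverse complement.
TOC1, chr5:24674713-24674962, plus strand: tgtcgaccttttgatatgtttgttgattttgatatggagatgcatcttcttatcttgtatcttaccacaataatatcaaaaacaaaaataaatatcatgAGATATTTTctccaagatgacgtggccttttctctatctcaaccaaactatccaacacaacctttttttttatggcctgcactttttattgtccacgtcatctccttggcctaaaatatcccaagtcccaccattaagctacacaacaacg

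Further lists held fewer calls. Of 8 tested iron genes, 3 were induced (median 0.73) and 2 after the length trend was removed: the iron store gene FER1 changed by 1.83, the iron uptake regulator BHLH39 by 1.78, and BTS, a ligase that restrains iron uptake, by 1.77, a call lost with the length trend removed (0.85, limma adjusted p = 0.0113). Of 6 tested anthocyanin and flavonoid genes, 4 were repressed (median -1.54, with -1.51 in Col-0), 3 after the length trend was removed, and 2 without replicate 2 at 20 °C or replicate 1 or 4 at 27 °C; chalcone synthase CHS was among them, at 13.7 to 15.4 scaled FPKM at 20 °C and 4.31 to 6.25 at 27 °C. Of 7 tested cold response genes, 2 were repressed (median -0.78, but 0.19 without scaling), among them COR413IM1 at -1.79, and 1 was after the length trend was removed or when any library other than replicates 2 and 3 at 20 °C was left out. The nitrate transporter gene NRT1.1 changed by -1.23.

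No gene was called in the lists of auxin synthesis, ethylene synthesis, endoplasmic reticulum chaperones, mitochondrial stress, salicylic acid and defence, or glucosinolates, of which 3, 4, 9, 3, 4 and 6 members were tested, with or without the length trend. None of 27 Mediator genes was called (median 0.10), and 1 was repressed after the length trend was removed. None of the 7 reference transcripts was called either (median 0.36), and ACT2 among them was at 484, 504, 529 and 603 scaled FPKM at 20 °C and at 738, 732, 664 and 768 at 27 °C, a change of 0.46 (limma adjusted p = 0.0492). Of 40 tested mitochondrial genes, 1 was induced, ATMG01220, which was listed at 0 in all 4 libraries at 20 °C and at 0.445 to 1.14 scaled FPKM at 27 °C. It passed the filter only through 27 °C and had to be higher there. After the length trend was removed, 3 mitochondrial genes were induced and 2 repressed. Over all tested genes, 8027 had an unadjusted p below 0.05.

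**Figure D4:**
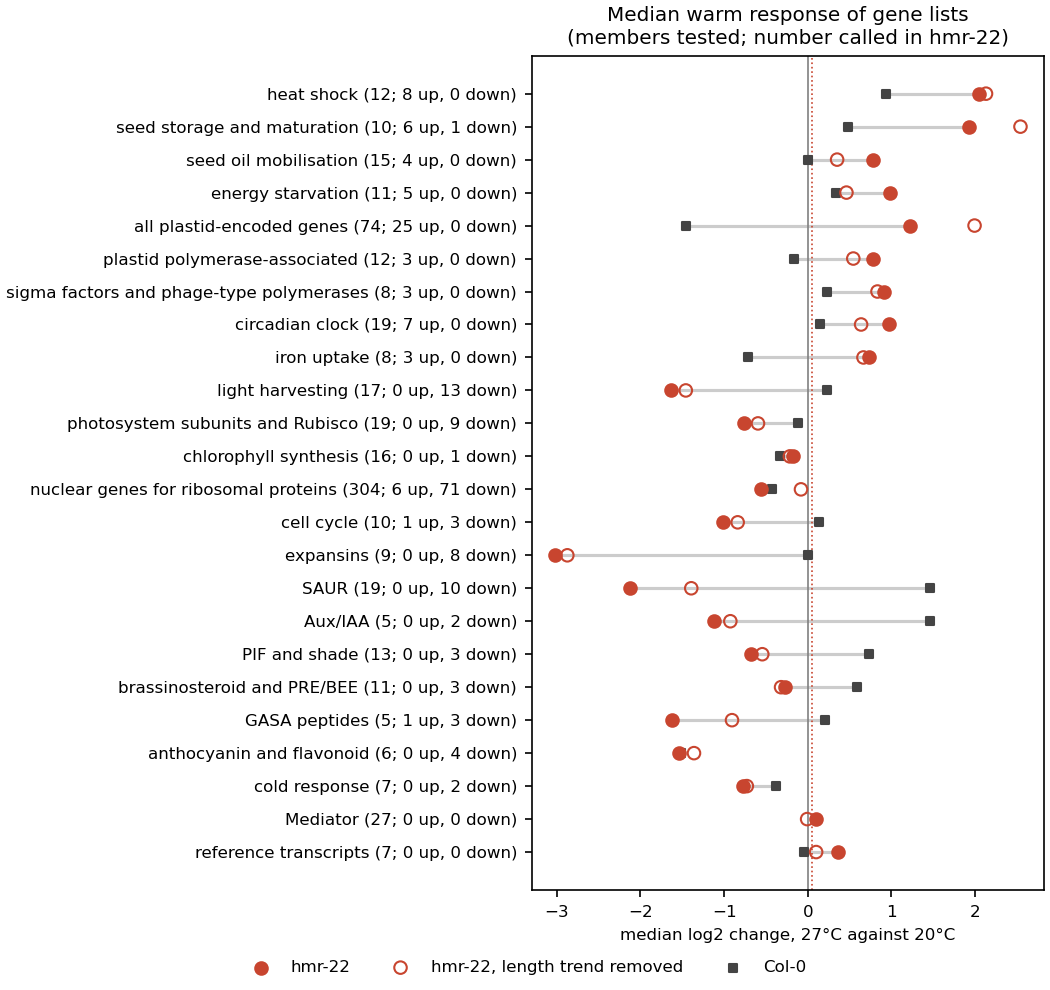
Median change between 27 °C and 20 °C of 24 gene lists in hmr-22 (filled), in hmr-22 with the length trend removed (open) and in Col-0 (squares, over the members tested with Col-0), with the members tested and called. The heat shock, seed, plastid and clock lists lie above 0 in hmr-22 and the antenna, SAUR and expansin lists below 0; without scaling the negative medians of the photosystem, chlorophyll, ribosomal, PIF and shade, brassinosteroid and cold lists turn positive.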

How the data were processed

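Total RNA of seedlings was made into stranded mRNA libraries and sequenced. Reads were mapped by the authors with CLC Genomics Workbench to TAIR10 with the Araport11 annotation, and the authors deposited FPKM values per gene for each library; CLC settings for multiply mapped reads are not given in the sources used here. The table held 27655 genes. Deposited FPKM multiplied by exon length gave whole fragments for 99.3% of the nuclear values of each library, within 0.05 of a fragment, and from these the depth was taken.

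Scaling of FPKM within the 8 hmr-22 libraries used trimmed means of M values (30% of M and 5% of A values trimmed, factors 0.426 to 1.65). Genes had to reach an FPKM of 0.5 in 4 or more of the libraries, and log2(scaled FPKM + 0.25) was tested with limma 3.58.1 (R 4.3.3, trend and robust options) with Benjamini-Hochberg adjustment over all tested genes. The response was compared with Col-0 by the interaction term over 16 libraries, at adjusted p below 0.05. Shares of fragments were compared by exact permutation tests. Promoters were read from RefSeq TAIR10.1, in which 27438 of the nuclear genes had the coordinates of the deposited table. The script was tested on simulated data.

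The gene lists and the genes named were chosen with earlier results of these data known: the 15 largest rises and falls with a symbol, up to 6 called members of each list, genes of the study and reference transcripts, of which the text gives a part. TOC1, the markers and the groups of the closing section lie outside this rule. The removal of the length trend was chosen after seeing the data. Alternatives were other scalings, filters, pseudocounts, weights, thresholds, sample sets, a replicate block, voom on recovered fragments and leaving out each library.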

Additional observations from a re-analysis of the deposited data

Results flagged for a closer look

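Of 144 sets of 4 libraries examined, 8 had a library set apart from the other 3, where chance gives about 1 in 20. Replicate 2 at 20 °C was the library set apart in 6 of them. It had 9.47% of its nuclear fragments in transcripts over 2500 bases, against 6.40% to 6.47% in the other 3 (gap over range 0.976). It was the only 20 °C library above 0 for PER1 (AT1G48130, 0.212 scaled FPKM) and for HSP17.4 (0.0996), with a ratio of 1 for each, and it was low for LHCB3 (5040, ratio 0.833), SAUR14 (59.4, ratio 0.886) and GASA1 (688, ratio 0.849). At 27 °C, replicate 3 was low for HSP101 (1.06, ratio 0.881) and replicate 2 was high for PRE6 (2.28, ratio 0.831).

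The response differed from Col-0 by at least 4 on the log2 scale, by the interaction test, for 9 of the genes given above. It was lower in hmr-22 for PCR3 (-6.00), GASA6 (-5.71), EXPA8 (-4.70), PDF1 (-4.38), IAA19 (-4.34), PRIN2 (-4.21) and OLEO3 (-4.15), and higher for the plastid genes psaA (4.79) and atpA (4.70).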

How the results depend on the processing

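Of the 59 genes called and given with values, 39 kept their direction and call under every one of 20 alternatives in which they were tested, and none of the 59 changed direction. The exception in direction was the uncalled YUC8, at 0.12 without scaling. Induced genes numbered 4791 without scaling, 2732 with all 32 libraries in the fit, 1635 with library weights and 1923 at adjusted p below 0.05, and 600 to 1145 when a library was left out. Repressed genes numbered 390 without scaling and 1021 to 1710 when a library was left out. The induced share of all calls was 39.8%, and it was 92.5%, 62.1%, 45.6% and 49.0% under those 4 alternatives, and 49.0% with quantile normalization. Genes with a lower response than in Col-0 numbered 1913 without scaling and 2806 to 3635 when a library was left out, and those with a higher response 2903 to 4162. Voom on the recovered fragments of nuclear genes called 1184 genes induced and 1654 repressed. Same-numbered libraries did not deviate together (correlations of -0.108, -0.183, -0.0575 and 0.179). With the replicate block, 824 genes were induced and 1282 repressed, and 3351 and 3223 differed from Col-0. No call of a named gene changed with the block, but light-harvesting genes repressed went from 13 to 8 and photosystem and Rubisco genes from 9 to 3. The difference in the nuclear share was 13.8 to 22.4 percentage points and that in the plastid share 0.434 to 0.543 when a library was left out, with p = 0.0571 for the nuclear share whenever a 27 °C library was the one left out (exact permutation test). The difference in the mitochondrial share was 0.0108 percentage points (exact permutation p = 0.0571) and 0.0064 to 0.0143 when a library was left out, with p = 0.0286 without replicate 1 at 27 °C. The causes were not tested.

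Library composition and transcript length moved with temperature in the hmr-22 libraries and cannot be told apart from it in 4 against 4 seedling samples. Genes near 1 FPKM at 20 °C rest on few fragments, and genes listed at 0 there give no fold. Plastid genes were outside the alternative on recovered fragments.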

Other observations

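Gene families read from the annotation's product names, and picked after their values were seen, showed further groups that moved mostly one way, against 6.96% of all tested genes induced and 10.5% repressed. Of 32 tested genes for arabinogalactan proteins of the cell surface, 26 were repressed and none was induced (median -2.01), with 20 repressed after the length trend was removed. AGP22, a member of this group, was at 106, 44.8, 123 and 92.5 scaled FPKM at 20 °C and at 0.934, 3.31, 2.28 and 2.65 at 27 °C. Of 11 fasciclin-like genes, for adhesion proteins related to the former, 8 were repressed (median -1.70), and 6 after the length trend was removed. A gene whose product name held both words was counted in both groups, so they are not separate sets. Of 26 pectin lyase-like genes, 13 were repressed (median -1.27) and 14 after the length trend was removed, among them the pectin methylesterase gene PME5, at 15.6 to 39.7 at 20 °C and 0.987 to 1.70 at 27 °C. Of 51 genes for lipid-transfer proteins, 26 were repressed and 1 was induced (median -1.84), and 25 and 3 after the length trend was removed.

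Histone genes fell in 25 of 40 cases and rose in none (median -1.45), with 14 repressed after the length trend was removed. The 3 markers of dividing cells summed to 3.37 to 6.003 scaled FPKM at 20 °C and to 1.24 to 2.104 at 27 °C and were all below without overlap, as were 20.7% of all tested genes; their part in the change of histone genes was not tested. Genes whose product names hold the word pentatricopeptide or the letters ppr were induced in 15 of 119 cases and repressed in 3 (median 0.69). After the length trend was removed, 4 were induced and 4 repressed. The letters ppr also occur in the word suppressor, so this is not a clean set of pentatricopeptide repeat genes. Genes for cytochrome P450 enzymes were induced in 16 of 92 cases and repressed in 2 (median 0.39), with 14 and 2 after the length trend was removed.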
